A study of Mus musculus with 29 samples.

Results

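Butyrate uptake and ketone body handling in the mouse colon were followed through 8 genes: the transporters Slc16a1 and Slc5a8, the enzymes Acads, Acat1 and Bdh1, and the receptors Ffar2, Ffar3 and Hcar2. Each gene was read from a probe set annotated to it and to no other gene. The rule takes the brightest on average where a gene has several, but each of the 8 had 1. They are 8 of 22180 genes with a probe set of their own on the Affymetrix Mouse Gene ST array. The level is a log2 array value, so that a difference of 1 is a 2-fold difference.

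Butyrate is made by bacteria that ferment fibre, and it is the main fuel of the absorptive cells that line the colon. These cells take it up through a proton-coupled transporter (MCT1, from Slc16a1) and a sodium-coupled one (SMCT1, from Slc5a8), and burn it in their mitochondria by beta-oxidation or turn part of it into ketone bodies. Cells of the gut wall also sense short-chain fatty acids through G-protein-coupled receptors, among them GPR43 (Ffar2), GPR41 (Ffar3) and GPR109A (Hcar2), and GPR109A also binds the ketone body beta-hydroxybutyrate and niacin.

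The study asked how loss of cytoglobin, a haem protein encoded by Cygb, affects colitis. RNA from the distal colon of female C57BL/6 mice aged 18 to 24 weeks was measured on 29 arrays. Wild-type (WT) colons filled 16, with 8 mice untreated and 8 given azoxymethane and dextran sulfate sodium (AOM/DSS), and Cygb-/- colons filled 13, with 8 mice untreated and 5 given AOM/DSS. AOM, a carcinogen, was injected into the peritoneum at 7.4 mg/kg, followed by DSS, an agent toxic to the gut lining, at 3% for 7 days per cycle. The AOM/DSS colons are called inflamed here. The labels give fewer DSS cycles and an earlier endpoint for these mice than the study's methods do. The Cygb-/- mice lacked an exon of Cygb in every cell, from stem cells of another mouse strain crossed back to C57BL/6, and came from a separate breeding line from the WT mice. The methods list the untreated mice with another cohort than the inflamed ones, so treatment and cohort cannot be told apart. The tissue was not sorted into cell types, and a lower value from fewer cells of a type cannot be told apart from less RNA per cell.

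The array data fitted the labels for Cygb. It read between 8.41 and 9.29 on the 16 WT arrays and between 5.84 and 6.48 on the 13 Cygb-/- arrays. The inflamed Cygb-/- replicate 3 stood apart in Xist, the transcript of the inactive X chromosome, at 3.82 against 10.64 to 11.15 on the other 28 arrays, although all mice are labelled female. Untreated WT replicates 5 and 6 carried squamous epithelium markers, with a score (the mean over the list of each gene's log2 deviation from its mean over all arrays) of 1.05 and 0.50 against -1.17 to -1.01 on the other untreated WT arrays. The inflamed groups also ranged widely in this score, from -0.82 to 2.83 in WT and from -0.44 to 1.66 in Cygb-/-. Averaged over all arrays the epithelial marker Epcam read 10.96 and the colonocyte marker Car1 read 12.09. The group means of Car1 ran from 11.34 in inflamed Cygb-/- to 12.59 in untreated Cygb-/-. These means go with the label of colon but do not check each array.

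Before the levels, the start regions of the 3 genes with the clearest roles in uptake and first oxidation are shown. Each runs from 250 bases before to 50 bases after an annotated start, from RefSeq on the mouse build GRCm38.p6, and is written 5′ to 3′ along the gene's own strand. Capitals mark matches, on either strand, to the GC box (GGGCGG, or CCGCCC on the other strand) and the E-box (CACGTG). None of these matches overlapped another.
Slc16a1 (chr3:104638414-104638713, + strand): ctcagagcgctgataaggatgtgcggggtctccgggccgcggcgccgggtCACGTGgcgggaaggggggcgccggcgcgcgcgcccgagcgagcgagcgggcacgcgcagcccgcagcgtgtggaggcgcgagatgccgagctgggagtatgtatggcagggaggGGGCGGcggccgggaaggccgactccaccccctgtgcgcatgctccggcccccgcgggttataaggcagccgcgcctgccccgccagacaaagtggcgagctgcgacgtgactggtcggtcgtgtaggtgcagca
Slc5a8 (chr10:88885742-88886041, + strand): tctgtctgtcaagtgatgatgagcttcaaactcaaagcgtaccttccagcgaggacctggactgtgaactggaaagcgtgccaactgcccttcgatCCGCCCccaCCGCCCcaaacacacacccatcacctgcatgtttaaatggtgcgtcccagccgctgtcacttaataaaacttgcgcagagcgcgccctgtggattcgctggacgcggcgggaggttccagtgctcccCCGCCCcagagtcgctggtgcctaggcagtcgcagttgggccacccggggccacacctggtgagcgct
Acads (chr5:115119297-115119596, - strand): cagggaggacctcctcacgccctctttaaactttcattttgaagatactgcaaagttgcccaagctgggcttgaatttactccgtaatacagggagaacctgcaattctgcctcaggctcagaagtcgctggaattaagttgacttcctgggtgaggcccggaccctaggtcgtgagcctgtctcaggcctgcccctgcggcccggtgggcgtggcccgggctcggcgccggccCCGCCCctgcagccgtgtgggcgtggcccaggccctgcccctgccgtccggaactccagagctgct
The Slc16a1 region held 42 CpG dinucleotides, more than 97% of the 32851 windows of this length in the same table, which had a median of 7. The Slc5a8 region held 20 and the Acads region 17. The GC box was present 1 time in Slc16a1, 3 times in Slc5a8 and 1 time in Acads, and in 35.7% of all windows. The E-box, present in Slc16a1 alone of these 3, occurred in 7.15% of all windows. The CCAAT box (CCAAT, in 37.4% of windows), the TATA box (TATAAA, in 13.6%) and a CDX site (TTTATG, in 11.9%) had no match in the 3 regions. Windows were found for 6 of the 8 genes, the others being Bdh1, Ffar2 and Ffar3, whose windows are not printed. A match to such letters is a description of the sequence and was not tested as a binding site.

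In WT mice, AOM/DSS lowered 6 of the 8 genes and raised 1. The genes that fell were the transporter Slc16a1, the enzymes Acads, Acat1 and Bdh1, and the receptors Ffar2 and Ffar3, and the gene that rose was Hcar2. Over all 41345 probe sets, 26.7% passed the same test in either direction, 14.3% lower and 12.5% higher (limma, Benjamini-Hochberg adjusted p under 0.05 over all probe sets). Inflamed and untreated values did not overlap for 5 of the 8 genes, against 8.50% of all probe sets. In Cygb-/- mice all 8 passed, 7 lower, now with Slc5a8, and Hcar2 higher, against 26.1% of all probe sets in either direction, 13.5% lower and 12.6% higher. Inflamed and untreated Cygb-/- values did not overlap for 6 of the 8, against 15.0% of all probe sets. The methods' t-test, which first leaves out changes under 1.5-fold, called 3 of the 8 in WT and 3 in Cygb-/-. The share of all probe sets that this t-test calls was not counted, so these 2 counts have no background beside them. Both contrasts moved the median of all probe sets by only -0.04, while the median of the 8 genes was -0.43 in WT and -0.55 in Cygb-/-.

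**Figure D1:**
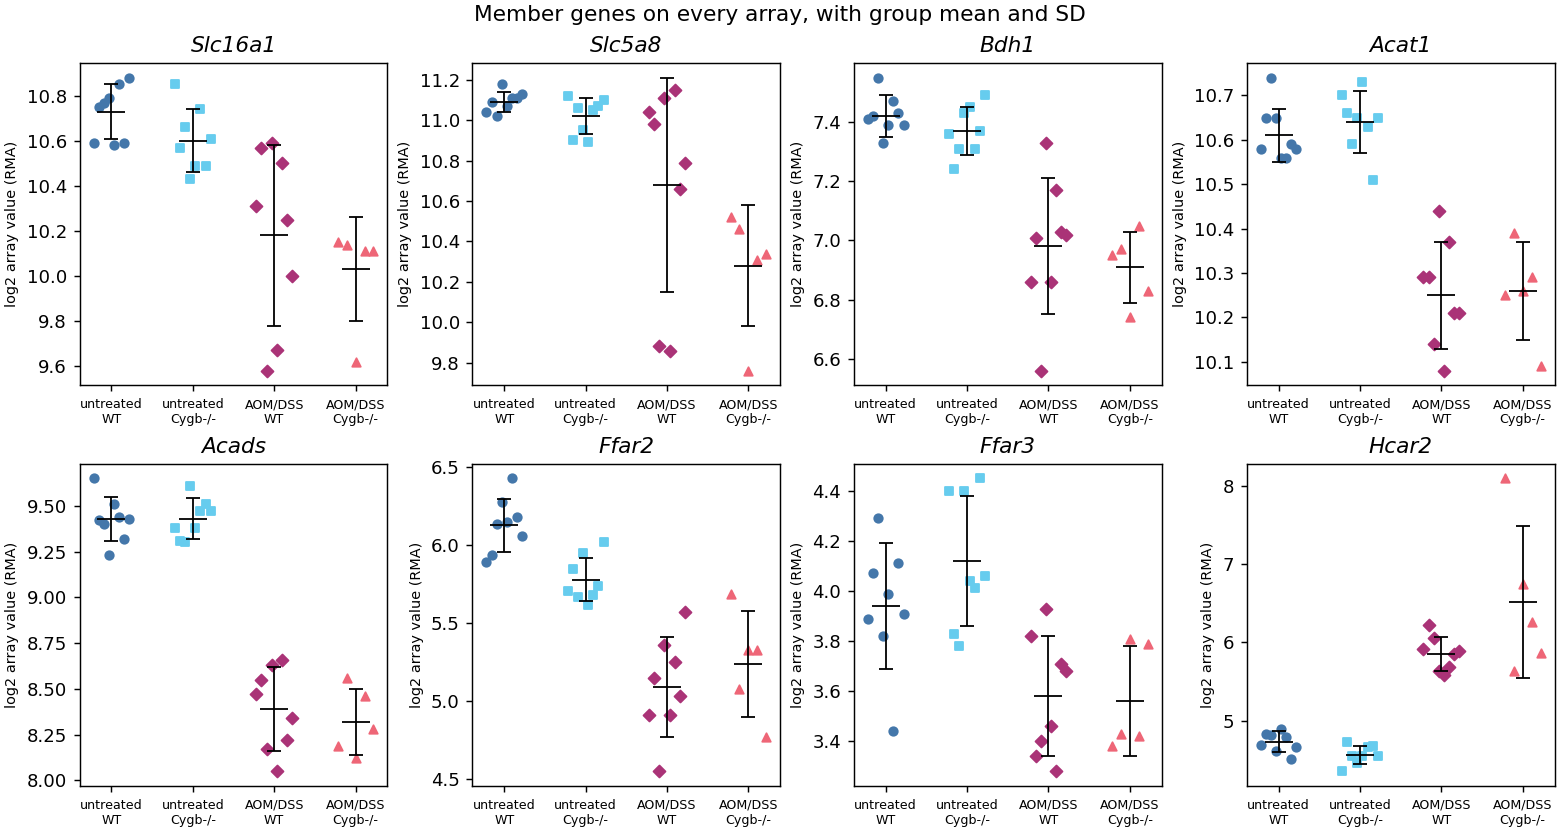
Log2 array value (RMA, vertical axis, a separate range for each gene) of the 8 genes on every array, grouped by treatment and genotype; each point is 1 array (8, 8, 8 and 5 per group) and the black bars are the group mean and SD. Acads lay between 8.05 and 8.66 on all inflamed arrays and between 9.23 and 9.65 on all untreated ones, while Hcar2 ran the other way and reached 8.10 on 1 inflamed Cygb-/- array.

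Among the transporters, Slc16a1 fell in both genotypes. The protein carries lactate, pyruvate, butyrate and ketone bodies together with a proton. In untreated WT it had a lowest value of 10.58, a median of 10.76 and a highest of 10.88, and in inflamed WT a lowest of 9.58, a median of 10.28 and a highest of 10.59. The inflamed WT group was thus spread, with replicates 3 and 5 at 9.58 and 9.67 and replicates 2 and 4, at 10.57 and 10.59, only reaching the lowest untreated arrays. The fall was 1.46-fold, a log2 difference of -0.54 ± 0.14 (SE; limma adjusted p = 0.00736). In untreated Cygb-/- the lowest, median and highest values were 10.43, 10.59 and 10.85, and the 5 inflamed Cygb-/- arrays read 10.15, 10.14, 9.62, 10.11 and 10.11. All 5 lay under every untreated Cygb-/- array, 4 of them within 0.04 of each other and replicate 3 well below. The log2 difference was -0.58 ± 0.10 (adjusted p = 0.000575), and -0.48 without replicate 3 (adjusted p = 0.000716).

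Slc5a8, whose sodium-coupled protein takes up butyrate at low concentrations, had tightly grouped untreated values and very uneven inflamed ones. Untreated WT arrays ran from 11.02 over a median of 11.10 to 11.18, and untreated Cygb-/- arrays from 10.89 over 11.06 to 11.12. Inflamed WT arrays ran from 9.86 over a median of 10.89 to 11.15. Replicates 3 and 5 were low, at 9.88 and 9.86, whereas replicates 4 and 6, at 11.11 and 11.15, stood above the untreated median. The SD was 0.53 in inflamed WT against 0.05 in untreated WT. The WT difference of -0.41 ± 0.17 did not pass the test (adjusted p = 0.0940), but did when the spread was estimated over all 4 groups in one fit (adjusted p = 0.0387). That fit also takes in the Cygb-/- groups, with SDs of 0.09 untreated and 0.30 inflamed, below the 0.53 of inflamed WT. The inflamed Cygb-/- arrays read 10.52, 10.46, 9.76, 10.31 and 10.34, all under every untreated Cygb-/- array. That fall was 1.67-fold, -0.74 ± 0.11 on the log2 scale (adjusted p = 0.000147), and -0.61 without replicate 3 (adjusted p = 3.49e-05).

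Among the enzymes, Acads showed the most separate groups. It encodes short-chain acyl-CoA dehydrogenase, which takes butyryl-CoA through the first step of beta-oxidation. Untreated WT arrays ran from 9.23 over a median of 9.43 to 9.65 and inflamed WT arrays from 8.05 over 8.40 to 8.66. No inflamed WT array came within 0.5 of the lowest untreated one, and replicates 5 and 3, at 8.05 and 8.17, were again the lowest. The fall was 2.06-fold, with a log2 difference of -1.04 ± 0.09 (adjusted p = 2.44e-07). In Cygb-/-, untreated arrays ran from 9.30 over 9.43 to 9.61, and the inflamed arrays read 8.19, 8.56, 8.12, 8.46 and 8.28. The groups were again apart, with a fall of 2.16-fold, -1.11 ± 0.08 on the log2 scale (adjusted p = 4.96e-07).

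Acat1 encodes the mitochondrial thiolase that splits acetoacetyl-CoA into acetyl-CoA and can run in reverse toward ketone bodies. It ran from 10.56 over a median of 10.59 to 10.74 in untreated WT and from 10.08 over 10.25 to 10.44 in inflamed WT. The groups did not overlap, and the difference, -0.36 ± 0.06, was small but even between arrays (1.28-fold, adjusted p = 0.000152). In Cygb-/- the untreated arrays ran from 10.51 over 10.65 to 10.73 and the inflamed ones read 10.25, 10.39, 10.26, 10.29 and 10.09. All inflamed values lay below the untreated ones, with a difference of -0.38 ± 0.06 (1.30-fold, adjusted p = 0.000321).

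Bdh1 encodes the mitochondrial enzyme that interconverts acetoacetate and beta-hydroxybutyrate. Its values ran from 7.33 over a median of 7.41 to 7.55 in untreated WT and from 6.56 over 7.01 to 7.33 in inflamed WT. The highest inflamed array, replicate 4, came up to the lowest untreated one to within rounding, and replicate 3 at 6.56 was the lowest. The difference was -0.44 ± 0.08 (1.36-fold, adjusted p = 0.000830). Untreated Cygb-/- arrays ran from 7.24 over 7.36 to 7.49, and inflamed Cygb-/- arrays read 6.95, 6.97, 6.74, 7.05 and 6.83. These groups were apart, with a difference of -0.46 ± 0.07 (1.38-fold, adjusted p = 0.000136).

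Of the receptors, Ffar2 fell in both genotypes. GPR43, its product, binds acetate, propionate and butyrate and is known from neutrophils and from hormone-secreting epithelial cells. Untreated WT arrays ran from 5.89 over a median of 6.14 to 6.43, and inflamed WT arrays from 4.55 over 5.09 to 5.57. The groups were apart, with a fall of 2.06-fold and a log2 difference of -1.04 ± 0.12 (adjusted p = 6.03e-06). Untreated Cygb-/- arrays started lower, from 5.62 over 5.72 to 6.02, and inflamed Cygb-/- arrays read 5.69, 5.08, 5.33, 5.33 and 4.77. Replicate 1, at 5.69, lay within the untreated range and the other 4 lay under it. The difference there was -0.54 ± 0.13 (1.45-fold, adjusted p = 0.00575). Neutrophil markers rose in the same colons and enteroendocrine markers fell, and their part in the Ffar2 values was not tested.

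Ffar3 encodes GPR41, which responds to propionate and butyrate. Its probe set was dim: it read 3.28 to 4.45 over all arrays, where the lower quartile of all probe sets on an array was 3.26 to 3.37. Untreated WT arrays ran from 3.44 over a median of 3.95 to 4.29 and inflamed WT arrays from 3.28 over 3.57 to 3.93. The groups overlapped, and the difference of -0.36 ± 0.12 passed the test narrowly (adjusted p = 0.0302). It no longer passed when any 1 of 8 arrays was left out, namely inflamed WT replicate 2, 3, 5 or 6 or untreated WT replicate 2, 3, 5 or 7 (adjusted p 0.0502 to 0.0612). In Cygb-/-, untreated arrays ran from 3.78 over 4.05 to 4.45 and inflamed arrays read 3.38, 3.43, 3.81, 3.42 and 3.79. The difference was -0.56 ± 0.13 (adjusted p = 0.00619), with replicates 3 and 5 inside the untreated range.

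Hcar2 was the one gene of the 8 that rose. GPR109A is known from colonic epithelium, fat cells and, in inflamed tissue, neutrophils and macrophages. Untreated WT arrays ran from 4.51 over a median of 4.74 to 4.89, close to the middle of all probe sets (array medians 4.76 to 4.88), and inflamed WT arrays from 5.58 over 5.87 to 6.22. All 8 inflamed WT arrays lay above all untreated ones, a rise of 2.19-fold and 1.13 ± 0.09 on the log2 scale (adjusted p = 8.35e-08). Untreated Cygb-/- arrays ran from 4.35 over 4.55 to 4.73, and the 5 inflamed ones read 8.10, 5.64, 6.75, 6.26 and 5.87. All 5 lay above the untreated arrays, but they were unequal, with replicates 1 and 3 highest. The rise was 3.89-fold, 1.96 ± 0.31 on the log2 scale (adjusted p = 0.000244), and 1.57 without replicate 1.

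**Figure D2:**
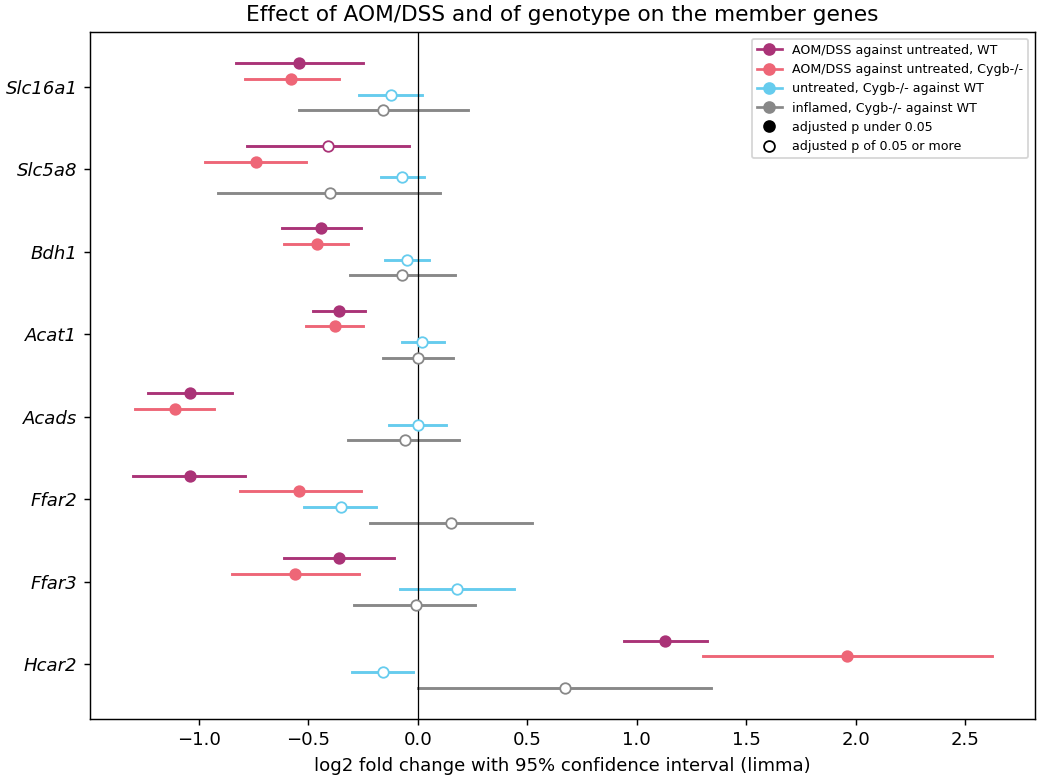
Log2 fold change of the 8 genes (horizontal axis) with the 95% confidence interval of the limma fit, for inflamed minus untreated colon in each genotype and for Cygb-/- minus WT at each treatment; filled points passed an adjusted p of 0.05 over all probe sets. The treatment points lie left of 0 for 7 genes and right of 0 for Hcar2, at 1.13 and 1.96, and all genotype points are open.

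The genotypes were compared directly within each treatment. None of the 8 genes differed between untreated Cygb-/- and untreated WT at the threshold, where 0.0218% of all probe sets did, and none differed between the inflamed genotypes, where 0.167% of all probe sets did (limma). The methods' t-test could not call any in untreated colon, because its 1.5-fold filter left out all 8 genes (largest change 1.28-fold, Ffar2). In inflamed colon only Hcar2, at 1.59-fold, entered that test, and it was not called. At an unadjusted p under 0.05 in limma the untreated comparison held 2 genes, Ffar2 and Hcar2, and the inflamed comparison 0, against 6.98% and 9.69% of all probe sets. Ffar2 read a difference of -0.35 ± 0.08 in untreated Cygb-/-, with all 8 arrays under the WT median (unadjusted p = 0.000380, adjusted p = 0.250), and its 95% interval ran from -0.52 to -0.19. Hcar2 read a difference of -0.16 ± 0.07, also with 8 of 8 arrays under the WT median (unadjusted p = 0.0265, adjusted p = 0.665). For the other 6 the 95% intervals of the untreated difference stayed between -0.27 and 0.44, the widest being that of the dim Ffar3. For Acads the interval was -0.13 to 0.13, well inside the size of its change with AOM/DSS.

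In inflamed colon, the Cygb-/- minus WT difference was 0.67 ± 0.31 for Hcar2 (95% interval 0.00 to 1.34, adjusted p = 0.517). Of the 5 Cygb-/- arrays, 3 lay above the WT median and 2 did not. The difference came down to 0.28 without Cygb-/- replicate 1 alone and to 0.07 without replicates 1 and 3 (adjusted p = 0.942). For Slc5a8 the inflamed difference was -0.40 ± 0.24 (interval -0.91 to 0.10, adjusted p = 0.629), with all 5 Cygb-/- arrays under the WT median. It was -0.28 without Cygb-/- replicate 3. Differences of the other 6 were between -0.16 and 0.15.

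Whether AOM/DSS acted differently in the 2 genotypes was tested as the interaction of genotype and treatment in a fit of all 4 groups. None of the 8 genes passed in limma, against 0.148% of all probe sets. At an unadjusted p under 0.05 stood 2, Ffar2 and Hcar2, against 8.08% of all probe sets. For Ffar2 the fall was 0.50 ± 0.18 smaller in Cygb-/- (unadjusted p = 0.00981, adjusted p = 0.394). The untreated Cygb-/- arrays were the lower of the untreated groups for this gene, while the inflamed means were 5.09 in WT and 5.24 in Cygb-/-. For Hcar2 the rise was 0.83 ± 0.30 larger in Cygb-/- (unadjusted p = 0.0104, adjusted p = 0.397), and 0.44 larger without Cygb-/- replicate 1. For Acat1, Bdh1 and Acads the interaction estimates were -0.02, -0.02 and -0.07, with 95% intervals inside -0.32 to 0.21.

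Ordered by mean, both untreated groups stood above both inflamed groups for the 7 genes other than Hcar2, and below them for Hcar2. Slc16a1, Slc5a8 and Bdh1 were in the order untreated WT, untreated Cygb-/-, inflamed WT, inflamed Cygb-/-. For Hcar2 the means were 4.56 in untreated Cygb-/-, 4.73 in untreated WT, 5.85 in inflamed WT and 6.52 in inflamed Cygb-/-. For each of the 8 genes, neighbours in the order that shared a treatment did not differ past the threshold.

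The 4 genes Slc16a1, Slc5a8, Acat1 and Acads also moved together from colon to colon within inflamed WT. Of the 28 pairs among the 8 genes, the 6 pairs among these 4 passed in the 8 inflamed WT arrays, and none passed in either untreated group (84 pairs in all, exact permutation test of Pearson's r, Benjamini-Hochberg over the 84). The 5 inflamed Cygb-/- arrays were too few for this and were left out. Over all pairs of 22180 genes, an r of at least 0.887 in either direction, the lowest of the 6, was reached by 1.21% in inflamed WT, 0.425% in untreated WT and 0.395% in untreated Cygb-/-. For Slc5a8 and Acads r was 0.908 (two-sided exact p = 0.000124, adjusted p = 0.0104) and rho 0.976 (exact p = 0.000397), and r was 0.966 without the 2 arrays farthest from the median, replicates 3 and 5. For Acat1 and Acads r was 0.958 (exact p = 0.000372, adjusted p = 0.0156) and rho 0.952, with r = 0.963 without replicates 4 and 5. The other 4 pairs had r of 0.887 to 0.936, and 0.714 to 0.879 without 2 arrays. With rho as the measure 4 of the 6 pairs passed, the pairs of Slc16a1 with Slc5a8 and with Acads being the 2 that did not. Replicates 3 and 5 of inflamed WT were low for all 4 genes, and replicate 4 was the highest for Slc16a1 and Acat1 and second to replicate 6 for Slc5a8 and Acads.

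These colons also differed in their content of absorptive cell transcripts. Of 10 absorptive colonocyte markers, 8 fell in inflamed WT (median log2 difference -0.86) and 9 in inflamed Cygb-/- (median -1.77). Their score ran from 0.37 to 0.62 in untreated WT, from 0.52 to 0.64 in untreated Cygb-/-, from -1.02 to -0.05 in inflamed WT and from -1.74 to -0.61 in inflamed Cygb-/-. The lowest inflamed WT scores were those of replicates 5 and 3, at -1.02 and -0.87, the WT arrays with the least Slc16a1, Slc5a8 and Acads. The lowest score of all was that of Cygb-/- replicate 3. Cygb-/- replicate 1, at -0.99, was next lowest in its group but had its highest Slc16a1 and Slc5a8, at 10.15 and 10.52. The general epithelial markers moved less: 3 of 10 fell in each genotype, with medians of -0.06 and -0.09. Other cell types moved as well: all 8 smooth muscle markers fell in each genotype, by a median of -0.49 in WT and -0.82 in Cygb-/-. All 6 measured B and plasma cell markers and 5 of 6 T cell markers rose in each. The part of the cell content in the values of the 8 genes was not tested.

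**Figure D3:**
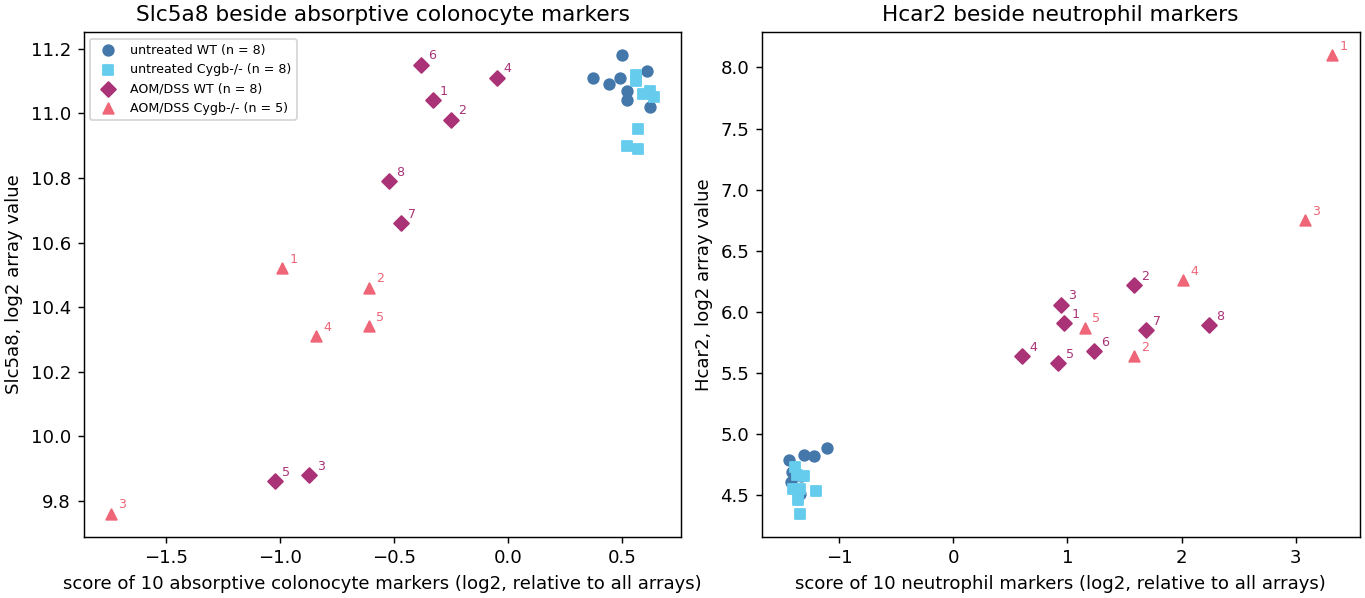
Left, the log2 array value of Slc5a8 against the score of 10 absorptive colonocyte markers; right, the value of Hcar2 against the score of 10 neutrophil markers; each point is 1 array, the groups differ in colour and shape, and numbers give the replicate of the inflamed arrays. Inflamed WT replicates 3 and 5 and Cygb-/- replicate 3 lie lowest in the left panel, with Slc5a8 at 9.88, 9.86 and 9.76. Cygb-/- replicate 1 has a colonocyte score of -0.99 with Slc5a8 at 10.52. In the right panel Cygb-/- replicates 1 and 3 lie farthest right, with Hcar2 at 8.10 and 6.75. Inflamed WT replicate 8 has a neutrophil score of 2.24 with Hcar2 at 5.89.

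Beside Hcar2, all 10 neutrophil markers rose in each genotype, by a median of 2.57 in WT and 3.96 in Cygb-/-. Their score ran from -1.44 to -1.11 in untreated WT and from 0.60 to 2.24 in inflamed WT. In the 5 inflamed Cygb-/- arrays it was 3.32, 1.58, 3.08, 2.01 and 1.15, and its highest values were on replicates 1 and 3, which also had the highest Hcar2. In inflamed WT the highest neutrophil score, 2.24, was on replicate 8, with Hcar2 at 5.89. The highest Hcar2 there, 6.22, was on replicate 2, with a neutrophil score of 1.58. All 10 macrophage and monocyte markers rose too, by a median of 1.22 in WT and 1.34 in Cygb-/-. Their score in inflamed Cygb-/- was also highest on replicates 1 and 3, at 1.13 and 1.17. Of the 7 measured adipocyte markers, 3 fell in each genotype and 0 rose. Without Cygb-/- replicates 1 and 3 the rise of Hcar2 in Cygb-/- was 1.36 (adjusted p = 1.13e-05). Beside Ffar2 and Ffar3, 6 of 8 enteroendocrine markers fell in WT and 5 of 8 in Cygb-/-, by a median of -0.49 and -0.45. The part of these cells in the receptor values was not tested.

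The rest of the transport machinery moved in both directions. Of 7 other genes of monocarboxylate transport, the same 2 rose and the same 3 fell in each genotype, against 12.5% higher and 14.3% lower of all probe sets in WT and 12.6% and 13.5% in Cygb-/-. Slc16a3, which encodes the lactate exporter MCT4, rose by 1.43 ± 0.15 in WT (adjusted p = 2.28e-06) and by 1.87 ± 0.12 in Cygb-/- (adjusted p = 9.05e-08). Emb, whose product embigin escorts monocarboxylate transporters to the membrane, rose by 1.57 ± 0.15 and 2.38 ± 0.26. Slc16a7, which encodes the high-affinity transporter MCT2, fell by 0.93 in WT (adjusted p = 1.25e-06) and by 1.15 in Cygb-/- (adjusted p = 2.25e-07). Bsg, whose product basigin is the partner that brings MCT1 and MCT4 to the membrane, fell by 0.17 and 0.21 (adjusted p = 0.00524 and 0.0134). The other one that fell, named after its values were seen, was Abcg2, which encodes an efflux pump. Among the proton-coupled transporters Slc16a1 and Slc16a7 thus fell where Slc16a3 rose.

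Most measured genes of the pathway around Acads fell as well. Of 16 measured genes of acyl-CoA activation and mitochondrial beta-oxidation, 11 fell and 1 rose in WT (median -0.31). In Cygb-/- 10 fell and 1 rose (median -0.42). Of all probe sets, 14.3% were lower and 12.5% higher in WT, and 13.5% and 12.6% in Cygb-/-. Etfb, a subunit of the flavoprotein that takes electrons from the acyl-CoA dehydrogenases, fell by 1.01 in WT (adjusted p = 8.25e-09) and by 0.90 in Cygb-/- (adjusted p = 3.25e-07). Acaa2, the mitochondrial thiolase of beta-oxidation, fell by 0.99 in WT and fell by 1.18 in Cygb-/-. Acss1, which makes acetyl-CoA from acetate in mitochondria, fell by 0.78 in WT and fell by 1.07 in Cygb-/-, and Acadvl, the dehydrogenase for very long chains, fell by 0.64 in each genotype. The one that rose was Acadl, the dehydrogenase for long chains, named after its values were seen. It gained 0.19 in WT (adjusted p = 0.0130) and 0.22 in Cygb-/- (adjusted p = 0.0245). Acsm1, Acsm2, Acsm5 and Hadhb passed in neither genotype and were dim. Averaged over all arrays, Acsm1, Acsm2 and Acsm5 read 2.832, 3.055 and 3.134, under the array lower quartiles of 3.26 to 3.37. Hadhb read 4.391, under the array medians of 4.76 to 4.88. None of the 16 differed between the genotypes past the threshold in untreated or in inflamed colon (limma). The shares of all probe sets there were 0.0218% and 0.167%. At an unadjusted p under 0.05 stood 1 in each, against 6.98% and 9.69% of all probe sets. The inflamed one, named after its values were seen, was Acadm, with a Cygb-/- minus WT difference of -0.37 ± 0.09 (adjusted p = 0.173).

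Ketone body genes other than Bdh1 and Acat1 showed little common movement. Of these, 4 were measured on a probe set of their own. Oxct1, the enzyme that commits ketone bodies to oxidation, read a log2 difference of -0.04 ± 0.05 in WT (adjusted p = 0.675) and -0.10 ± 0.07 in Cygb-/- (adjusted p = 0.321). Bdh2, a cytosolic dehydrogenase of the same family as Bdh1, fell by 0.49 in Cygb-/- (adjusted p = 0.0196) and read -0.22 ± 0.10 in WT (adjusted p = 0.114). Aacs, which activates acetoacetate for lipid synthesis, rose by 0.39 in WT (adjusted p = 0.0295) and read -0.04 ± 0.09 in Cygb-/-. Hmgcll1, a lyase found outside the mitochondria, rose by 0.50 in Cygb-/- (adjusted p = 0.0283) and read 0.16 ± 0.18 in WT. None of these differences between the genotypes passed as an interaction (adjusted p of 0.441 for Aacs, 0.806 for Hmgcll1 and 0.759 for Bdh2).

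Among related receptors, 5 genes were measured. Gpr84, a receptor for medium-chain fatty acids on myeloid cells, rose by 1.68 ± 0.28 in WT (adjusted p = 0.000231) and by 2.38 ± 0.27 in Cygb-/- (adjusted p = 1.38e-05). Ffar4, a receptor for long-chain fatty acids, fell by 0.54 in WT (adjusted p = 6.36e-05) and read -0.13 ± 0.14 in Cygb-/- (adjusted p = 0.568), with an interaction of 0.41 ± 0.15 that did not pass (adjusted p = 0.422). Hcar1, a lactate receptor related to Hcar2, read -0.16 ± 0.08 and -0.17 ± 0.12 and passed in neither genotype. The same held for Olfr558, at -0.21 ± 0.12 and -0.16 ± 0.15.

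**Figure D4:**
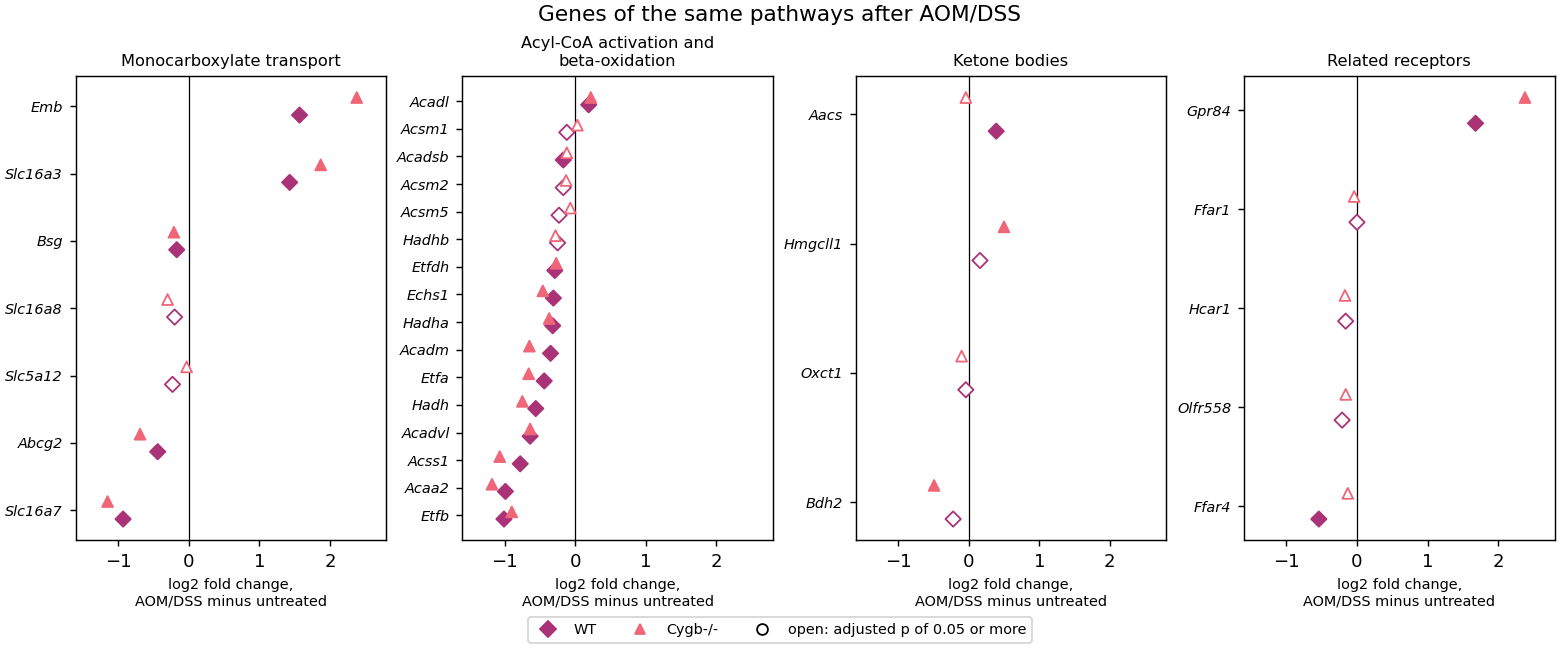
Log2 fold change of AOM/DSS against untreated colon (horizontal axis) for measured genes of 4 pathway lists that are not among the 8 members, in WT (diamonds) and Cygb-/- (triangles); filled symbols passed an adjusted p of 0.05 over all probe sets. Monocarboxylate transport splits between Emb and Slc16a3, above 1.4, and Slc16a7, at -0.93 and -1.15, while all but 1 or 2 of the 16 beta-oxidation genes lie left of 0.

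The genes most like each member over all 29 arrays, among 22179 other genes, are given as a description by Pearson's r, to which the difference between treated and untreated arrays contributes, with r of the deviations from the 4 group means beside it. Acads was most like Retsat (r = 0.983, deviations 0.792), and Slc5a8 was most like Itih5 (0.951, deviations 0.913), Slc6a14 (0.951, deviations 0.921) and Abat (0.945, deviations 0.913). Slc6a14 encodes an amino acid transporter and Abat a mitochondrial GABA transaminase. Slc16a1 was most like Pttg1ip (0.955, deviations 0.892), Acat1 like Chchd10 (0.965, deviations 0.793), and Bdh1 like Foxd2 (0.952, deviations 0.832). Ffar2 was most like Kcnma1 (0.911, deviations 0.744), and the dim Ffar3 reached only 0.809, with Irak2. Hcar2 had another company: Acod1, which makes itaconate in activated macrophages (0.957, deviations 0.780), the chemokine Ccl3 (0.956, deviations 0.778) and Emilin2 (0.952, deviations 0.779).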

How the data were processed

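RNA of 29 distal colon pieces was hybridised to Affymetrix Mouse Gene ST arrays. The deposited values are log2 expression measures, 1 per probe set, which the authors made with the RMA algorithm of the oligo package and normalised between arrays; the version and build are not given in the sources used here. Probe sets were named from the platform annotation: of 41345, 23521 carried 1 gene, 1820 several and 16004 none, and only those with 1 gene were named. Arrays were grouped by the labels, and p-values measure the spread between mice of these groups. The values were tested as deposited with limma 3.58.1 in R 4.3.3 (lmFit, eBayes), 2 groups at a time, with all 4 groups for the interaction, two-sided, and Benjamini-Hochberg adjustment over all probe sets at 0.05. Correlations used exact permutations (numpy 2.4.6). No depth applies to arrays, so the number of arrays limits the precision. The 8 members and all lists were chosen with earlier results of these data known. No p of a fold change was therefore adjusted over a list alone. The correlation p-values, however, were adjusted only over the 84 pairs of members tested. Named beside the members were Cygb, at most 4 genes of each pathway list by smallest p, and the 3 genes most like each member. The fits were tested on simulated data. Alternatives were the methods' t-test, another normalisation, spread model, array weights, filter on dim probe sets, set of groups, replicate block, probe set rule and single arrays left out, and, chosen after seeing the data, pairs of arrays left out.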

Additional observations from a re-analysis of the deposited data

Results flagged for a closer look

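Values of the 8 genes were examined for an array far from the others of its group in the 4 groups, 32 sets of values in all, of which chance marks about 1 in 20. Of these, 2 stood out, both on inflamed Cygb-/- replicate 3, the array with the low Xist value. Slc16a1 read 9.62 there against 10.11 to 10.15 on the other 4 arrays of the group, a gap of 0.915 of the whole range. Slc5a8 read 9.76 against 10.31 to 10.52, a gap of 0.731 of the range. The absorptive colonocyte score of this array, -1.74, was the lowest of the 29. Its part in these values was not tested.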

How the results depend on the processing

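The 8 genes' fold changes were refitted 1123 times in all. Of these, 1063 kept their direction and their side of the threshold, 18 lost the call, 1 gained it and 41 turned sign. No fold change that had passed turned sign. The number of the 8 genes past the threshold moved by over 1.5 times under the methods' t-test alone, to 3 in WT and 3 in Cygb-/-, a test that leaves out changes under 1.5-fold. It was 0 in the comparisons of genotype and the interaction under every alternative run. The methods' t-test could not call any of the 8 in untreated colon, where no change reached 1.5-fold. Leaving out single arrays gave 6 to 7 genes in WT and 8 in every fit in Cygb-/-. A filter on dim probe sets leaves out Ffar3.

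The deviations of same-numbered arrays had a mean correlation of -0.0076 in the WT treatment comparison, -0.0218 in Cygb-/-, -0.0519 untreated and 0.076 inflamed. Only in the inflamed comparison were any pairs over 0.1, 3 of 5 with a highest of 0.219. There 2 of the 5 were most alike with their own number, so a shared numbering is not settled for that comparison. The main fits took the arrays as unpaired, and a replicate block was run as an alternative. With the replicate block the counts were 7 in WT and 7 in Cygb-/-, where Ffar3 read -0.528 (adjusted p = 0.0896), and Bdh1 read 0.0052 in the interaction.

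The sign turned only for differences near 0. Acads between untreated genotypes read -0.00113 with quantile normalisation and -0.024 to 0.0356 without single arrays. Between inflamed genotypes Acat1 read -0.000323 with array weights and -0.0305 to 0.0429 without single arrays, and Ffar3 0.00827 with arrays centred on their median and -0.0761 to 0.0362 without single arrays. Without Cygb-/- replicates 1 and 3, chosen after seeing the data, Acads read 0.0462 and Ffar2 -0.0305. For the interaction, Bdh1 read 0.00182 with centred arrays and -0.0773 to 0.032 without single arrays, Slc16a1 -0.12 to 0.0677 and Acat1 -0.0543 to 0.019 without single arrays. Without Cygb-/- replicates 1 and 3 the interaction read 0.0596 for Slc16a1, 0.0233 for Bdh1 and 0.0427 for Acads. The cause was not tested.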
